A study of Mus musculus with 6 samples.

Results

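The genes described here are 7 cytokine genes of type 2 helper T cells, Il4, Il13, Il5, Il3, Il31, Il24 and Il9, among 18193 genes measured. Each has 1 single-gene probe set on the array, so the account rests on 7 of 45037 probe sets. The genes were listed by name, and earlier values from these same 6 arrays entered the choice. Their levels and their differences between genotypes are therefore given as a description, and background shares are given beside their counts with nothing read from them. The limma intervals and calls printed for the 7 come from the arrays that entered the choice, so nothing is concluded from them either.

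The arrays held RNA of CD4 T cells from OT-II mice, whose transgenic T cell receptor sees a peptide of ovalbumin, in 2 groups of 3 arrays. The first group lacked SAP, the product of Sh2d1a and an adaptor in signalling by receptors of the SLAM family, and the second was wild type (WT). Naive cells of both groups, low in CD44, positive for CD62L and negative for CD25, were sorted from spleen and lymph nodes, then grown for 3.5 days with ovalbumin peptide and T cell-depleted splenocytes whose division mitomycin C had stopped. All cultures received IL-21 at 50 ng/ml and IL-6 at 100 ng/ml. They also held antibodies to TGF-β at 20 µg/ml, to IL-4 at 10 µg/ml, and to IL-12 and IFN-γ with no dose stated, conditions meant to yield cells that resemble follicular helper T (Tfh) cells. The IL-4 antibody blocks the secreted protein, and how completely it did so in these cultures was not measured. The labels give no age or number of mice, and do not say if replicates were separate cultures. Any p-value thus measures only the spread between these samples, part of which may be technical.

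Type 2 cytokines are the secreted products of helper T cells that drive immunity to worms and allergic disease. Il4, Il13 and Il5 sit together in 1 gene cluster on mouse chromosome 11, with Il3 farther along the same chromosome, and the transcription factor GATA3, together with factors activated through the T cell receptor such as NFAT, opens and drives that cluster. IL-4 acts back on T cells through STAT6 to reinforce GATA3, the loop that the IL-4 antibody is meant to interrupt. Tfh cells are themselves known to make IL-4, and SAP is known to be needed for normal IL-4 production by T cells.

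Levels are log2 values normalised by the authors with RMA, so 1 unit is a doubling. Probe sets differ in brightness, so levels are compared between arrays and not between genes. The median of the probe-set means over 6 arrays was 5.75, and the highest value in the table was 14.2. Sh2d1a itself was at 5.47, 4.10 and 4.92 in SAP-deficient replicates 1 to 3, against 9.50, 8.52 and 9.39 in WT replicates 1 to 3. Its difference was -4.31 ± 0.37 (SE), with a limma p adjusted over genes of 0.0501, or 1.99e-07 with the replicate number as a block. Adjusted over all probe sets, the limma p without the block was 0.124. Whether its probes lie in the deleted part of the gene is not given in the labels. T cell transcripts were bright, as with Cd3e at 10.38 to 10.84 in SAP-deficient and 10.53 to 10.96 in WT arrays.

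Replicate numbers follow the order of the sample list, and the labels pair no arrays. Arrays of equal number nevertheless resembled each other across genotypes more than arrays of 1 genotype did, with correlations over all probe sets of 0.996 to 0.998 against 0.989 to 0.994. Sex-linked transcripts separated the numbers in the same way. Xist, the RNA that silences an X chromosome, was at 12.50, 8.19 and 6.26 in SAP-deficient replicates 1 to 3, against 12.50, 8.21 and 5.81 in WT replicates 1 to 3. Eif2s3y, carried on the Y chromosome, was at 2.91, 9.98 and 9.76 in SAP-deficient arrays, against 3.54, 9.96 and 9.80 in WT arrays. Differences are therefore given both between genotype means and within each number. Number 1 of both genotypes was thus high in Xist and low in Eif2s3y, as in female cells, while numbers 2 and 3 were high in Eif2s3y. The 3 arrays of a genotype were therefore not all repeats of 1 sample. What else the numbers stand for was not tested.

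Il4, encoding the cytokine that directs type 2 differentiation and antibody class switching, was at 11.09, 9.76 and 11.73 in SAP-deficient replicates 1, 2 and 3. In WT replicates 1, 2 and 3 it was at 10.57, 9.53 and 11.29. Number 2 was lowest and number 3 highest in both genotypes, and the genotypes overlapped. The difference, SAP-deficient minus WT, was 0.40 ± 0.55 (SE; 95% interval -0.87 to 1.67), a 1.32-fold ratio. Within numbers 1, 2 and 3 it was 0.52, 0.23 and 0.44, so the SAP-deficient array was the higher one each time. Between the lowest and the highest array of 1 genotype, Il4 differed 3.92-fold in SAP-deficient and 3.39-fold in WT cells.

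Il13, which shares the IL-4 receptor alpha chain with IL-4 and acts on epithelium and macrophages, followed the same order of arrays. It was at 8.58, 8.16 and 9.88 in SAP-deficient replicates 1 to 3, against 8.25, 7.66 and 9.05 in WT replicates 1 to 3. Again number 3 was highest and number 2 lowest in both genotypes, with overlap between them. The difference was 0.55 ± 0.47 (-0.54 to 1.64), and within numbers 1 to 3 it was 0.34, 0.49 and 0.82. The largest gap lay in number 3, where the ratio was 1.77-fold.

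The other genes of the chromosome 11 group had narrower ranges. Il5, the growth factor of eosinophils, was dim, at 5.23, 4.96 and 5.15 in SAP-deficient replicates 1 to 3, against 5.29, 4.70 and 4.73 in WT replicates 1 to 3. Its mean of 5.01 lay under the median of probe-set means, and its highest value was in number 1, not number 3. The difference was 0.21 ± 0.17 (-0.19 to 0.61), with -0.06, 0.26 and 0.43 within the numbers. Il3, a growth factor for mast cells, basophils and blood progenitors, was among the brightest probe sets, at 13.90, 13.66 and 13.94 in SAP-deficient replicates 1 to 3, against 13.89, 13.71 and 13.93 in WT replicates 1 to 3. All 6 values lay close to the highest value in the table. Its difference was -0.01 ± 0.09 (-0.21 to 0.19).

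Il31, which encodes a cytokine of activated type 2 cells known for causing itch through the receptor pair IL-31RA and OSMR, had by far the widest range of the 7. It was at 11.02, 9.22 and 12.29 in SAP-deficient replicates 1 to 3, against 10.11, 8.63 and 11.94 in WT replicates 1 to 3. The ratio of the highest to the lowest array was 8.40-fold among SAP-deficient and 9.89-fold among WT cells. The order of the numbers was that of Il4 and Il13, number 3 over 1 over 2, in both genotypes. Between genotypes the difference was 0.61 ± 0.93 (-1.52 to 2.75), and within numbers 1 to 3 it was 0.91, 0.59 and 0.35, with SAP-deficient the higher array each time. The WT range of 3.31 log2 units was thus 5.38 times the genotype difference.

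Il24, a member of the IL-20 family first known in the mouse as an IL-4-induced product of type 2 cells, was bright and highest in number 3. It was at 11.00, 11.24 and 12.17 in SAP-deficient replicates 1 to 3, against 10.71, 10.68 and 12.02 in WT replicates 1 to 3. Numbers 1 and 2 lay close together, unlike for Il4 and Il31. The difference was 0.33 ± 0.41 (-0.60 to 1.27), with 0.29, 0.56 and 0.15 within the numbers. Il9, which encodes a mast cell growth factor made by type 2 and Th9 cells, was dim at 5.01, 5.12 and 5.59 in SAP-deficient replicates 1 to 3, against 4.87, 5.21 and 4.88 in WT replicates 1 to 3. One value, that of SAP-deficient replicate 3, stood above the others. The difference of Il9 was 0.25 ± 0.18 (-0.15 to 0.66), with 0.14, -0.09 and 0.71 within the numbers.

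**Figure D1:**
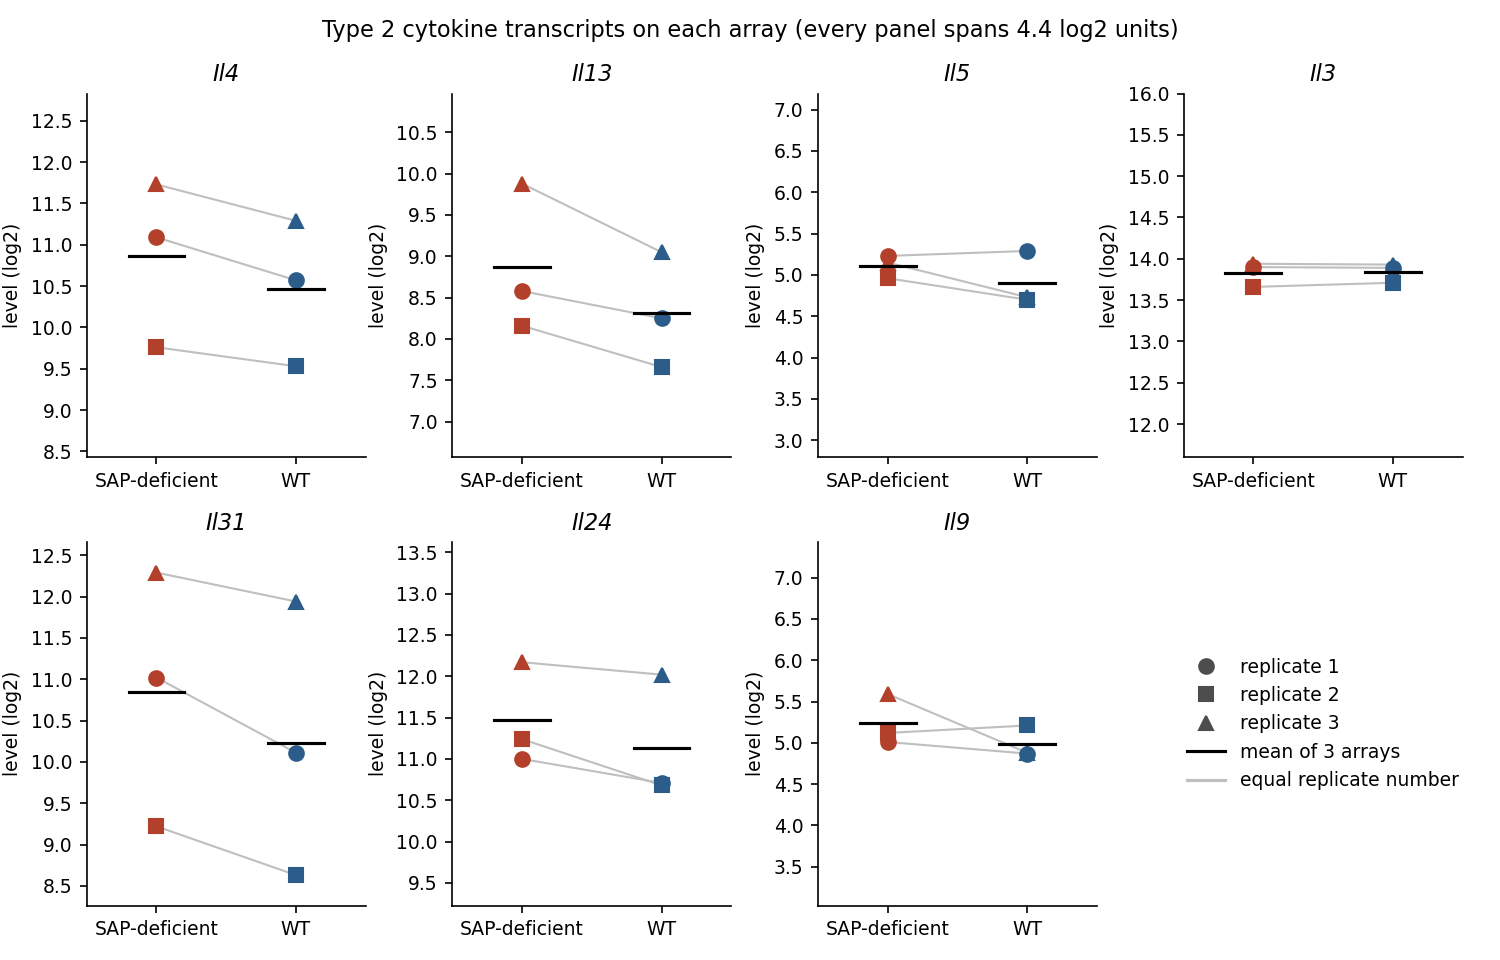
Level (log2) of the 7 transcripts on each array, with SAP-deficient arrays left of WT arrays, 1 point per array, black bars at the mean of 3 arrays and grey lines joining arrays of equal replicate number. Il4, Il13 and Il31 keep the order number 3 over 1 over 2 in both genotypes, and Il31 spans 3.07 log2 units in SAP-deficient and 3.31 in WT cells.

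Means over the genotypes repeat the picture. Il4 averaged 10.86 ± 1.00 in SAP-deficient and 10.46 ± 0.88 in WT cells (SD, n = 3 each). Il31 averaged 10.84 ± 1.54 in SAP-deficient and 10.23 ± 1.66 in WT cells, so its SD within a genotype exceeded the difference between genotypes. The other means were 8.87 ± 0.90 in SAP-deficient and 8.32 ± 0.70 in WT cells for Il13, and 11.47 ± 0.62 in SAP-deficient and 11.13 ± 0.77 in WT cells for Il24. By mean, 6 of the 7 genes were higher in SAP-deficient cells, all but Il3, as were 9700 of all 18193 genes, and the median difference was 0.33 against 0.008 over all genes.

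In the comparison of genotypes across all probe sets, limma called none of the 7 at an adjusted p under 0.05. It called 0 of 18193 genes (0.00%), while 239 genes (1.31%) had an unadjusted p under 0.05. With the replicate number as a block, 1 gene (0.00550%), Sh2d1a, was called and 1110 (6.10%) had an unadjusted p under 0.05, and again none of the 7 was called. The block narrowed the intervals of the members, to 0.25 to 0.55 for Il4, 0.33 to 0.77 for Il13, 0.41 to 0.82 for Il31 and 0.17 to 0.50 for Il24. For Il5 the blocked interval was -0.06 to 0.48, for Il3 -0.08 to 0.06 and for Il9 -0.08 to 0.59. For none of the 7 did every SAP-deficient array lie beyond every WT array, an order that 2.38% of genes showed upward and 2.94% downward. Il4, Il13, Il31 and Il24, 4 of 7, were higher in the SAP-deficient array of every number, as were 15.6% of all genes, and 13.1% were lower in every number.

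**Figure D2:**
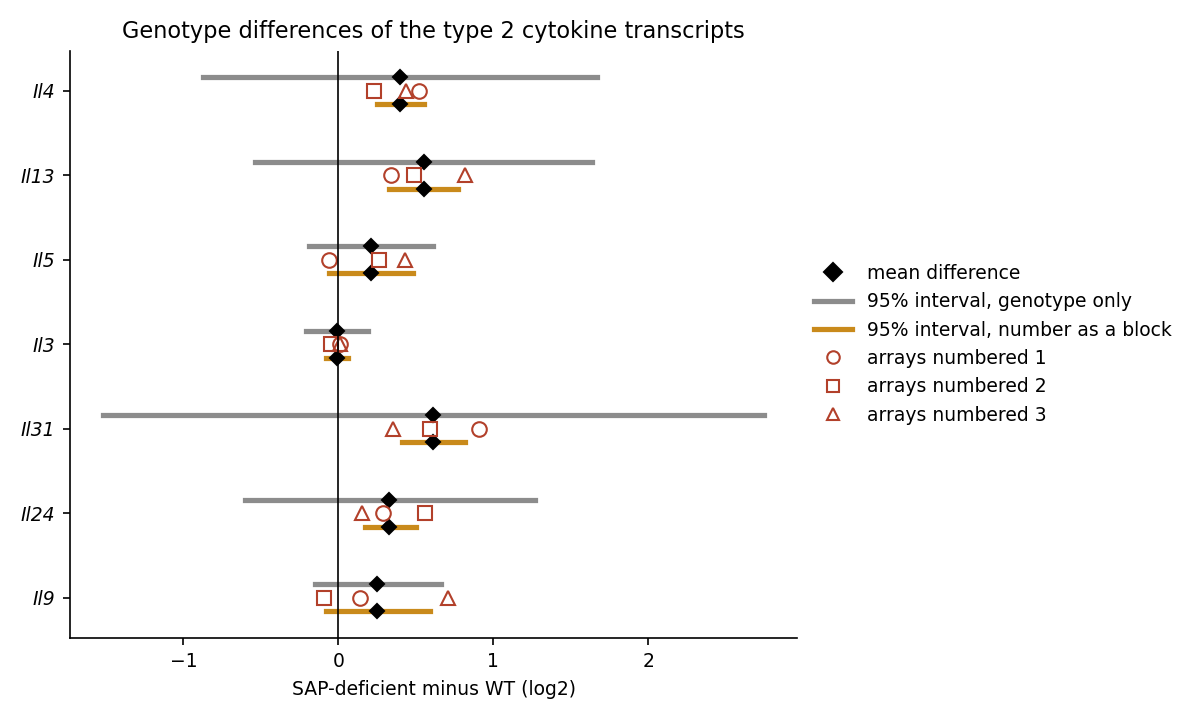
SAP-deficient minus WT (log2) for each gene, with open symbols for the differences within replicate numbers 1 to 3, diamonds for the mean, grey bars for the 95% interval of the genotype-only fit and amber bars for that with the number as a block. Il31 has the widest genotype-only interval, -1.52 to 2.75, and a blocked one of 0.41 to 0.82.

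The gaps of Il13, Il5 and Il9 were largest in number 3, and the shifts of the MHC class II and B cell lists were largest there too. Those of Il4 (0.52) and Il31 (0.91) were instead largest in number 1, and that of Il24 (0.56) in number 2. In number 3 the gap was smallest for Il31 (0.35) and Il24 (0.15), and Il3 hardly differed in any number. All 8 measured MHC class II genes were lower by mean in SAP-deficient arrays, with a mean shift of -0.07, -0.05 and -0.54 in numbers 1 to 3. All 11 measured B cell genes were lower too, at -0.17, -0.03 and -0.39. Summed on the linear scale, the B cell genes ran from 1504 to 2490 in SAP-deficient and from 1667 to 2755 in WT arrays, and the MHC class II genes from 2579 to 3583 in SAP-deficient and from 2918 to 3648 in WT arrays. The shift in number 3 was -0.13 for macrophage and dendritic cell genes, 0.04 for mast cell, basophil and eosinophil genes and 0.00 for innate lymphoid and NKT genes. None of these genes was called. Their part in the cytokine values was not tested, and fewer cells of a type and less RNA per cell cannot be told apart in such samples.

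The spread between arrays was part of how the genes were chosen, so its ranks are a description. Within a genotype, the range of Il31 ranked 5 of 18193 genes among SAP-deficient arrays and 4 among WT arrays. Ranked by SD over all 6 arrays, which also holds the genotype difference, Il31 was number 6 of 18193 genes, with an SD of 1.47, after Eif2s3y, Xist and Kdm5d of the sex chromosomes, the targeted gene Sh2d1a, and Esm1. Il4 ranked 54, Il13 ranked 96 and Il24 ranked 198. A range over 1 log2 unit in each genotype was shown by 4 of the 7, against 2.36% of all genes, and one over 2 units by Il31 alone, against 0.121% of all genes. The remaining genes ranked 2628 (Il9), 2952 (Il5) and 11653 (Il3).

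**Figure D3:**
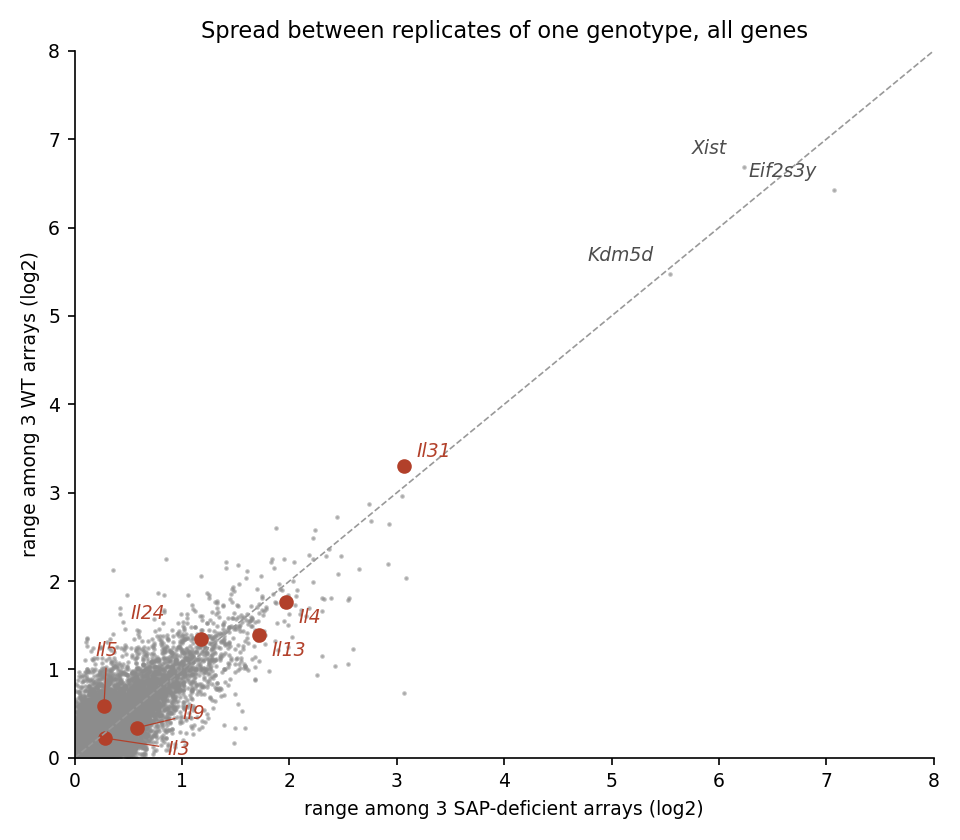
Range among the 3 WT arrays against the range among the 3 SAP-deficient arrays (log2), 1 grey point per gene for 18193 genes, the 7 cytokine genes in red and a dashed line of equal ranges. Il31 lies at 3.07 in SAP-deficient and 3.31 in WT cells, beyond nearly all genes other than the sex-linked Xist, Eif2s3y and Kdm5d.

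The order number 3 over 1 over 2 was found in both genotypes for Il4, Il13, Il31 and, over its narrow range, Il3, which makes 4 of 7 against 8.12% of all genes. Most of the spread was shared by both genotypes. Over all genes the median share held by replicate number was 66.9%, and over genes with a mean over the median it was 78.7%. Differences between replicate numbers held 94.0% of the sum of squares of Il31, 93.2% of that of Il4, 90.0% of that of Il24 and 82.9% of that of Il13. Genotype held 5.23% for Il31, 6.22% for Il4, 7.94% for Il24 and 15.0% for Il13. The dim genes differed in this, with 61.4% between numbers for Il5 and 26.3% for Il9, where 47.4% was left over after both terms. For Il3 the numbers held 98.3%, of a total range of only 0.28 log2 units.

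The sequences just before the transcription starts of Il4, Il13 and Il31, the 3 genes with the order number 3 over 1 over 2 and a range over 1 log2 unit in both genotypes, are shown side by side. RefSeq's promoter table for GRCm38.p6 held a window for 6 of the 7 genes, and Il24 had none. The 250 bases before the annotated start are printed 5′ to 3′ on the gene's strand, with capitals marking the NFAT core GGAAA and the GATA core GATAA, read on both strands. No match of one core overlapped one of the other in these windows. Of 2 Il4 windows in the table, the one at the annotated gene start was used. Il4 is shown from chr11:53618666-53618915 (minus strand), Il13 from chr11:53634703-53634952 (minus strand) and Il31 from chr5:123482624-123482873 (minus strand).
Il4: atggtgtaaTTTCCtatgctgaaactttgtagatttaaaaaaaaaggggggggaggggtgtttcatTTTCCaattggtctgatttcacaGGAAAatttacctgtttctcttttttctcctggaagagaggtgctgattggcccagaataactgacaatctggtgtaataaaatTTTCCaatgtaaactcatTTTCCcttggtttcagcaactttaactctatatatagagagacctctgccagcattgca
Il13: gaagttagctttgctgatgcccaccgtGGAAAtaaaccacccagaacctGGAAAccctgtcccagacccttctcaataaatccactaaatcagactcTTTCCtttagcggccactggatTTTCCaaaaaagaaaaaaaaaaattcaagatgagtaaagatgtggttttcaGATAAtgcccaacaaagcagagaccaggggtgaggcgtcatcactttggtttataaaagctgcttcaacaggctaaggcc
Il31: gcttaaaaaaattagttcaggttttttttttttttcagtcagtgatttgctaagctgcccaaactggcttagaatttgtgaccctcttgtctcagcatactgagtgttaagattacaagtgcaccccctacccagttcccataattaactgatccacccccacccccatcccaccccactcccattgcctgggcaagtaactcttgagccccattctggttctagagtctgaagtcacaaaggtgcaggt

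The Il4 window held 5 NFAT cores and no GATA core, and the Il13 window 4 NFAT cores and 1 GATA core. At least 1 NFAT core was found in 55.6% of 32851 promoter windows of the same length and at least 4 in 1.6%, while 22.6% held a GATA core. The Il31 window held neither. Among the other genes, Il5 had 2 NFAT cores, Il9 had 3, and Il3 had 1 with 2 GATA cores. At least 2 NFAT cores were found in 21.4% of all windows, at least 3 in 6.4%, and at least 2 GATA cores in 4.3%. A site for AP-1 (TGANTCA) was present once, before Il9, and in 6.7% of all windows. The GAS form of a STAT site (TTCNNNGAA) was present in none of the 6 and in 7.0% of all. STAT sites with a longer spacer were not searched. The GATA form GATAG was not counted either, and the Il5 window holds it on the opposite strand. Such matches describe letters in a short window, and enhancers farther away were not examined.

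Transcription factors of type 2 cells were well expressed, and 0 of 33 measured in the list of these factors and their antagonists was called (limma, adjusted p under 0.05). In SAP-deficient cells the mean was higher for 21 and lower for 12, with a median of 0.03, beside 9700 of 18193 higher and a median of 0.008 over all genes, the counts against which those of the lists that follow stand. Gata3, the factor that commits cells to the type 2 fate, was at 10.15, 9.57 and 10.83 in SAP-deficient replicates 1 to 3, against 10.04, 9.50 and 10.54 in WT replicates 1 to 3. It followed the order of Il4 with a narrower range, and differed by 0.15 ± 0.34 (SE, limma adjusted p = 1). Stat6, which carries the IL-4 signal, differed by 0.12 ± 0.13, and a second probe set by 0.09 ± 0.15. Maf, a factor that activates Il4, differed by 0.39 ± 0.19 on its brightest probe set, but its other 5 probe sets, each dimmer, ran from -0.44 to 0.22.

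That order was found in both genotypes for 8 of the 33 factors. Nfatc1, the NFAT gene induced by receptor signals, was among them, at 10.70, 9.42 and 10.85 in SAP-deficient replicates 1 to 3 against 10.66, 9.50 and 10.98 in WT replicates 1 to 3. Nfatc2, the NFAT gene already present in resting T cells, ran the other way, highest in number 2 at 9.39 in SAP-deficient and 9.30 in WT cells. Tbx21, the antagonist that directs Th1 cells, was at 9.74 to 9.81 in SAP-deficient and 9.69 to 9.97 in WT arrays. These 3 genes were chosen from the list after their values were seen. Values are from the brightest of 5 probe sets for Nfatc1 and of 6 for Nfatc2, and the dimmer ones were not compared.

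Other cytokine genes of activated CD4 T cells gave 10 of 23 in the same order of numbers. Against WT, 11 of the 23 were higher and 12 lower by mean, with a median of -0.008, and 0 was called. Il2, the T cell growth factor, was at 13.88, 13.32 and 13.89 in SAP-deficient replicates 1 to 3, against 13.82, 13.34 and 13.92 in WT replicates 1 to 3. Csf2, which lies beside Il3 and encodes GM-CSF, was at 13.21, 12.84 and 13.46 in SAP-deficient arrays, against 12.98, 12.71 and 13.51 in WT arrays. Il21, the Tfh cytokine, differed by -0.18 ± 0.24 and Il10, which restrains inflammation, by -0.12 ± 0.59, both with a limma adjusted p of 1. Ccl1, a chemokine gene of type 2 cells, was at 11.57, 11.49 and 12.67 in SAP-deficient arrays, against 11.19, 10.86 and 12.26 in WT arrays, a difference of 0.47 ± 0.41. Xcl1, a chemokine gene that draws dendritic cells, was lower at -0.59 ± 0.14. In the genotype-only limma fit it had the smallest unadjusted p of the listed genes, 0.00281, with an adjusted p of 1. With the number as a block, the unadjusted limma p was 0.000621 for Xcl1 and smaller for Ccl1, at 1.2e-05 (adjusted 0.0801). For Xcl1 every SAP-deficient value, 10.18 to 10.65, lay under every WT value, 10.81 to 11.10.

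**Figure D4:**
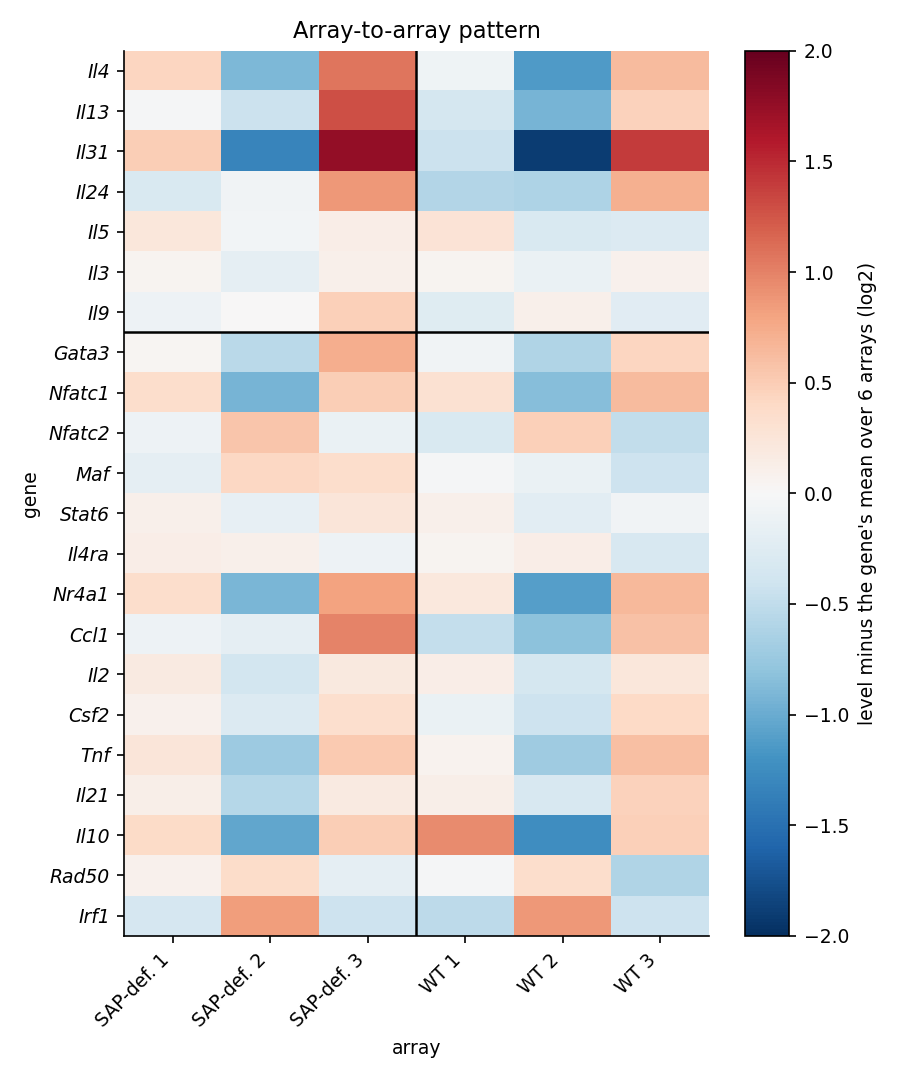
Level minus the gene's own mean over 6 arrays (log2, colour) for the 7 cytokine genes, above the line, and other genes of the type 2 pathway, T cell activation and the chromosome 11 region, below it, with SAP-deficient arrays left of WT arrays. Il31 is the most strongly coloured, from 9.22 to 12.29 (level) in SAP-deficient and 8.63 to 11.94 in WT cells, and Irf1 is highest in number 2, where Il4 is lowest.

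Closeness of pattern was measured as the root mean square distance between the 6 centred values of 2 genes, in log2 units, for the 4 cytokine genes with an SD of at least 0.5 and a mean over the median. The nearest genes were sought among all genes outside the 7. Nearest to Il4 were Hamp (0.119), which encodes the iron hormone hepcidin, Nr4a1 (0.173), an orphan receptor gene switched on by T cell receptor signals, and Mcoln2 (0.178), encoding a lysosomal channel. Nearest to Il13 were Id1 (0.165), Ccl1 (0.184) and the peptidase gene Enpep (0.197), and nearest to Il24 Cdk5r1 (0.093), Sv2c (0.125) and Ccl1 (0.151). Il31 had no neighbour as close, with Samd4 at 0.394, Mst1r at 0.525 and Sgms2 at 0.603, but this distance also grows with a gene's own spread. Among the 7 themselves, Il4 and Il13 were 0.312 apart and Il4 and Il31 0.569. The median distance of the genes outside the 7 was 0.796 from Il4 and 1.34 from Il31. Of those genes, 19 lay nearer to Il4 than Il13 did, and 15 nearer to Il13 than Il4 did. For Il31, 2 lay nearer than its nearest member, Il4, and for Il24, 60 lay nearer than its nearest member, Il13. These distances describe 6 arrays that resemble each other by number, so many genes can lie close.

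Genes next to the cytokines on chromosome 11 were examined for the same order of arrays. Of 28 measured neighbours, taken as all those between Il4 and Il3 with 10 on either side in RefSeq's order, 3 had the order number 3 over 1 over 2 in both genotypes. Their means were higher for 20 and lower for 8 in SAP-deficient cells, with a median of 0.05, and 0 was called. Rad50, the DNA repair gene that lies between Il13 and Il5 and contains control elements of the cluster, was at 8.55, 8.83 and 8.28 in SAP-deficient replicates 1 to 3, against 8.44, 8.82 and 7.86 in WT replicates 1 to 3, the reverse of the order of Il4. Irf1, an interferon-induced factor gene beyond Il5, was at 9.14, 10.30 and 9.05 in SAP-deficient arrays, against 8.94, 10.33 and 9.06 in WT arrays, also highest in number 2.

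Receptors for the 7 cytokines were mostly dim in these cultures. Only 4 of 13 measured receptor genes had a mean over 5.75, 8 were higher and 5 lower by mean with a median of 0.01, and 0 was called. Il4ra, the shared chain for IL-4 and IL-13, was at 9.13, 9.10 and 8.90 in SAP-deficient replicates 1 to 3, against 9.06, 9.14 and 8.69 in WT replicates 1 to 3. Its difference was 0.08 ± 0.15, with -0.11 ± 0.13 and 0.00 ± 0.13 on the other 2 probe sets. Il31ra, the specific chain for IL-31, was at 5.67 to 6.02 in SAP-deficient and 5.77 to 6.11 in WT arrays, and its partner Osmr at 4.10 to 4.17 in SAP-deficient and 4.12 to 4.23 in WT arrays. The list of IL-4 and STAT6 response genes had 11 of 17 higher with a median of 0.05, and that of receptors marking type 2 T cells 8 of 13 higher with a median of 0.02, with 0 called in either.

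Of the lists of other cells able to make type 2 cytokines, that of innate lymphoid and NKT cells had 8 of 11 measured genes with a mean over the median of 5.75. Its mean level was 7.72, 7.82 and 7.65 in SAP-deficient replicates 1 to 3, against 7.72, 7.75 and 7.65 in WT replicates 1 to 3, highest in number 2. This list shares Eomes with that of type 2 factors and antagonists, and its counts do not tell such cells from T cells. In the list of mast cells, basophils and eosinophils, 3 of 19 measured genes had a mean over the median of 5.75. Their summed level ran from 599 to 737 in SAP-deficient and from 623 to 709 in WT arrays on the linear scale. Their mean level was nevertheless lowest in number 2 and highest in number 3, like Il4, at 4.68, 4.65 and 4.81 in SAP-deficient replicates 1 to 3, against 4.73, 4.70 and 4.77 in WT replicates 1 to 3. The part of such cells in the cytokine values was not tested. Array values do not reach 0, and Fcer1a and Ms4a2, which encode chains of the high-affinity IgE receptor, lay at 3.17 to 3.40 and 3.18 to 3.48 in SAP-deficient arrays, against 3.27 to 3.39 and 3.33 to 3.60 in WT arrays. The basophil protease gene Mcpt8 was at 4.77 to 4.96 in SAP-deficient and 4.96 to 5.36 in WT arrays. Over the median lay Siglecf, Hdc and Gata2, with means of 7.02, 6.45 and 5.81. Hdc had the order of Il4, at 6.27, 6.22 and 6.86 in SAP-deficient and 6.37, 5.96 and 7.02 in WT replicates 1 to 3. Of the 19 mast cell, basophil and eosinophil genes, 2 had that order in both genotypes, against 8.12% of all genes. By mean, 7 of 19 of these genes were higher in SAP-deficient cells, 7 of 11 innate lymphoid and NKT genes, 5 of 11 macrophage and dendritic cell genes and 7 of 11 T cell genes, with medians of -0.009, 0.04, -0.02 and 0.02, and 0 called in any. The T cell list had a mean level of 11.75, 11.42 and 11.60 in SAP-deficient replicates 1 to 3, against 11.75, 11.47 and 11.57 in WT replicates 1 to 3, lowest in number 2 but not highest in number 3. Its part in the cytokine pattern was not tested.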

How the data were processed

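RNA of 3 SAP-deficient and 3 WT samples of cultured T cells was hybridised to Affymetrix mouse whole-genome arrays. The authors made the log2 values with RMA in Affymetrix Expression Console, per the submitters' processing notes, a method that corrects background, equalises array distributions and summarises probe sets on the log2 scale. Neither software versions nor a genome build are given in the labels. With RMA, dim probe sets show too small a difference, and a change in total RNA is hidden. The deposited log2 values cover 45101 probe sets, 1 column per array, with array medians from 5.73 to 5.76. No 2 arrays shared more than 63 equal values. The number of arrays limits precision.

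The 64 control probe sets entered no fit. Of the other 45037, the platform annotation gives 1 gene for 34945, several for 932 and none for 9160, and symbols were updated through RefSeq's gene table (GRCm38.p6) for 34741. Each of 18193 genes was represented by its brightest single-gene probe set. limma 3.58.1 (R 4.3.3) fitted genotype to all probe sets with a trended eBayes, and p-values were adjusted by Benjamini-Hochberg, with calls at 0.05. Adjustment was made over all probe sets and, for calls of genes, again over the probe sets that represent genes. The fitting code was tested on simulated data. The 12 gene lists, with 190 of 207 genes measured, come from textbook knowledge, the chromosome 11 neighbours from RefSeq's gene order. The members and lists were chosen with earlier results of these data known.

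Arrays were matched across genotypes on odd-numbered probe sets, without the members. On even-numbered ones, deviations from genotype means correlated at 0.51 to 0.73 within equal numbers and at most at -0.10 otherwise, partly because deviations sum to 0. A fit with the number as a block was therefore run beside the main one. Named genes follow a rule: the members, Sh2d1a, 8 fixed pathway genes, 2 neighbours, 2 sex-linked genes, listed genes with an unadjusted p under 0.01, and the 3 nearest patterns. Genes named beyond it, including rows of the pattern plot, were chosen after their values were seen. Alternatives changed the variance model, dim-probe filter, scaling, weights, probe-set choice and array set.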

Additional observations from a re-analysis of the deposited data

How the results depend on the processing

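All 110 alternative values of the 7 cytokine differences stayed within 1 SD between replicates of the reported ones. That limit is wide, with an SD of 1.60 against a difference of 0.61 for Il31, and 0.95 against 0.40 for Il4. Values of the opposite sign can thus lie within it, and staying within it says little about stability. Il5 and Il9 have no value without probe sets under the median level, and the mean of all probe sets changes nothing for genes with 1. Apart from single-array removals, Il4 ran from 0.34 to 0.65, Il13 from 0.41 to 0.71, Il31 from 0.47 to 1.08 and Il24 from 0.22 to 0.49. Removing 1 array unbalances the numbers and turned signs: Il4 ran from -0.07 to 0.95, Il31 from -0.18 to 1.47 and Il24 from -0.02 to 0.78, below 0 without WT replicate 2 (Il4, Il31) or SAP-deficient replicate 3 (Il4, Il31, Il24). Il13 ran from 0.05 to 0.92, Il5 from 0.11 to 0.40, Il9 from 0.08 to 0.37 and Il3 from -0.08 to 0.08.

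With the replicate number as a block, 1 gene and 1 probe set were called. Without number 1 of both genotypes this block called 3 genes and 6 probe sets, without number 2 it called 1 gene and 3 probe sets, and without number 3 it called 36 genes and 40 probe sets. Each block fit without a number had 2 arrays a genotype and 1 residual degree of freedom. Without number 3, Il31 at 0.75 and Il24 at 0.43 were among the calls. So were 1 gene of the other cytokines list (Ccl1) and 1 of the type 2 receptor list (Cysltr1), and the cause was not tested. Robust variance called 1 gene, Sh2d1a, and counts without single arrays ran from 0 to 1 gene. The other alternatives called 0. The block changed no other call.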

Other observations

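Besides the sex-linked genes and Sh2d1a, Esm1 was the only gene with a higher SD over the 6 arrays than Il31, 1.51 against 1.47. It was named after its values were seen. Esm1, which encodes a secreted proteoglycan known from endothelium, was at 7.78, 4.98 and 8.03 in SAP-deficient replicates 1 to 3, against 8.08, 5.12 and 7.95 in WT replicates 1 to 3. Like Il31 it was lowest in number 2, but numbers 1 and 3 lay close together. Hamp, the gene nearest in pattern to Il4, was at 7.72, 6.56 and 8.55 in SAP-deficient replicates 1 to 3, against 7.36, 6.16 and 7.79 in WT replicates 1 to 3, and differed by 0.51 ± 0.55 between genotypes (SE). P4ha2, a collagen-modifying enzyme gene between Il5 and Il3, was at 10.17, 8.79 and 9.76 in SAP-deficient arrays, against 10.03, 8.52 and 9.67 in WT arrays. It was the chromosome 11 neighbour with the widest range and, unlike Il4, was highest in number 1.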
